A study of Mus musculus with 8 samples.

Results

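A set of 10 genes, which encode myeloid surface receptors and a ligand, was followed in mouse bone marrow derived macrophages labelled Baf60a KO and WT. They were Cd200r1, Cd200r4 and Cd200, the CD300 genes Cd300a, Cd300lf, Cd300ld and Cd300lb, and the immunoglobulin-like receptors Pirb, Lilrb4a and Lilr4b. These 10 genes were found by symbol among the 55421 genes of the deposited table, and all 10 were among the 13933 genes expressed highly enough to be tested. The set was chosen by family membership and by the TPM of Cd200r1, which fell in an earlier fit of the same KO and WT libraries, so the values of Cd200r1 are given as a description and support nothing further. Although the group is known for its inhibitory receptors, Cd200r4, Cd300ld, Cd300lb and Lilr4b lack an inhibitory motif, and Cd200 is a ligand.

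The series compared 4 libraries labelled Baf60a KO with 4 libraries labelled WT, all of primary macrophages at day 7 of differentiation in culture. Baf60a is the protein made from Smarcd1, a subunit of the BAF chromatin remodelling complexes. The series title names C57 mice. The deleted part of Smarcd1, the way it was deleted, the age and sex of the mice and whether a group's libraries came from separate mice were not stated in the sources used here. The p-values therefore refer to the spread among these 8 libraries, part of which may be technical.

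The values are TPM, which express how abundant a gene's transcripts were per unit of their length within a library whose total is fixed, and they keep no read depth. Smarcd1 had 10.8, 10.3, 10.9 and 9.91 TPM in the KO libraries, against 16.3, 14.3, 14.8 and 14.0 TPM in the WT libraries, and so was lower but not absent in KO. Processed pseudogenes held 7.48% to 8.38% of TPM in the KO libraries, against 6.78%, 7.62%, 12.004% and 12.25% in WT replicates 1 to 4, so that WT replicates 3 and 4 stood apart. The macrophage markers Adgre1, Csf1r, Cd68, Mertk, Fcgr1 and Itgam were all expressed, with a sum of 2303 to 2401 TPM in KO and 1796 to 2204 TPM in WT, and 2 of the 6 (Cd68 and Itgam) rose. Markers of stromal cells were also abundant, at a sum of 5614 to 5931 TPM in KO and 4468 to 4949 TPM in WT, and 5 of 7 rose. Without WT replicates 3 and 4, 0 of the 6 macrophage markers and 4 of the 7 stromal markers rose; leaving out 1 library at a time gave 0 to 5 and 3 to 5. Across all genes tested, 782 differed at an adjusted p under 0.05 (5.61%), of which 613 were higher in KO (4.40%) and 169 lower (1.21%). This split moved with the scaling, to 516 higher and 404 lower under median-of-ratios scaling, 440 and 254 under quantile normalization, and 594 and 321 when TPM was rescaled over protein-coding genes.

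Paired receptors are families in which closely related genes send opposite signals. The inhibitory members carry immunoreceptor tyrosine-based inhibitory motifs (ITIMs) that recruit the phosphatases SHP-1 and SHP-2 and the lipid phosphatase SHIP-1, while their activating relatives have short tails and couple to adaptors such as DAP12 or the Fc receptor gamma chain. CD200R1 differs in that it inhibits through the adaptor DOK2 rather than through an ITIM. In macrophages these receptors are known for restraining activation by cells that display CD200, by phosphatidylserine and other lipids, or by MHC class I molecules.

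Several of these genes were copied recently, which bears on how 51-base reads can be assigned to them. The first 90 coding bases of Lilrb4a and Lilr4b differed at 2 positions, those of Pirb and its activating relative Pira2 at 1, and those of the CD300 genes Cd300ld3 and Cd300ld5 at 3. They are printed from the GENCODE M21 transcripts (mm10), with capitals at the bases that differ within each pair. The first base lies at position 51491018 of chromosome 10 (plus strand) for Lilrb4a and 51480720 for Lilr4b (plus strand). For Pirb it lies at position 3720326 of chromosome 7 (minus strand) and for Pira2 at 3845023 (minus strand), and for Cd300ld3 at position 115048295 of chromosome 11 (minus strand) and for Cd300ld5 at 115037655 (minus strand).
Lilrb4a: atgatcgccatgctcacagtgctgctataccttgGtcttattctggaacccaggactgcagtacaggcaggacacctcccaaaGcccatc
Lilr4b: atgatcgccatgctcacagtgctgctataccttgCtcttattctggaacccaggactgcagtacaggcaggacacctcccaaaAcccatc
Pirb: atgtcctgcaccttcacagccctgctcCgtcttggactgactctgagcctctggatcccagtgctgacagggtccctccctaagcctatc
Pira2: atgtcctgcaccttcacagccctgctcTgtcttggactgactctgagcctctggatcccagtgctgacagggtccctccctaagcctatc
Cd300ld3: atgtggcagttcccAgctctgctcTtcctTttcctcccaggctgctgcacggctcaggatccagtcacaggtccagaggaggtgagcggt
Cd300ld5: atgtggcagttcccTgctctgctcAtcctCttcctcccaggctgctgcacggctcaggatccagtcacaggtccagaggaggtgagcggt

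Over their whole aligned coding sequence, Lilrb4a and Lilr4b were 96.04% identical (910 aligned bases), Pirb and Pira2 95.35% (2042 bases), and Cd200r1 and Cd200r4 88.21% (806 bases). Of the distinct 51-base stretches in its protein-coding transcripts, Cd200r1 shared 2.06% with transcripts of other genes, Cd300a 3.10%, Cd300ld 3.82%, Cd200r4 4.80% and Cd300lf 5.93%. Cd200 and Cd300lb shared none. Lilr4b shared 25.2%, Pirb 37.0% and Lilrb4a 94.4%, so the TPM of these 3 genes depends on how reads that match several genes were divided, and their separate values are uncertain. These shares count single stretches. The reads were paired, and how far both reads of a pair together separate the genes was not computed.

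The 5′ flanks of the members whose values did not overlap between the groups are shown next. RefSeq promoters (GRCm38.p6) were held for 8 of the 10 genes, which left Cd200r1 and Lilrb4a without one, so the flanks printed are those of Pirb (chr7:3720383-3720632, minus strand) and Cd300lb (chr11:114934372-114934621, minus strand). Each is the 250 bases before the start, and capitals mark the letters GAGGAA, the core of the motif of the myeloid factor PU.1, or their reverse complement.
Pirb: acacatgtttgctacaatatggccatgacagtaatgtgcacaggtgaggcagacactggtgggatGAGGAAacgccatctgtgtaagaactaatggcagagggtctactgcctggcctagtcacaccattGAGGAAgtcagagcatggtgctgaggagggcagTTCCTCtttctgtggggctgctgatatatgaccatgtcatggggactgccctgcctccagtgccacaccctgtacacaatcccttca
Cd300lb: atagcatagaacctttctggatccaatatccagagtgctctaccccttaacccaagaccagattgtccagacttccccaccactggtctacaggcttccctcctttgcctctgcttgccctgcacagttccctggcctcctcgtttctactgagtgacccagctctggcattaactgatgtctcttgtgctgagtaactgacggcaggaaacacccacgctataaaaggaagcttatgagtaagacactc

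The Pirb flank held GAGGAA 3 times, at 185, 120 and 87 bases before the start, and the Cd300lb flank held it nowhere. Cd300a, Cd300lf and Cd300ld held it once each, while Lilr4b, Cd200r4 and Cd200 did not. On either strand, GAGGAA occurred in 23.25% of all 32851 promoters of the same length. The AP-1 letters TGANTCA, searched on both strands, occurred in 6.749% of them and in none of the 8. No match of one motif therefore overlapped a match of the other in these 8.

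Among the 10 genes, Cd300lb was higher in KO and Cd200r1 lower, and the values of Pirb were also lower in every KO library. The other 7 had overlapping values. Leaving out Cd200r1, 1 of 9 genes rose, none fell and 8 did not pass, where 5.61% of all genes tested were called. At an unadjusted p under 0.05 there were 5 of the 9, where 22.3% of all genes tested were under it. Ranges that did not overlap were found for 1 of the 9 higher in KO and 1 lower, where 15.8% of all genes tested had such ranges, 11.9% higher and 3.96% lower. The median log2 difference of the 9 was -0.16 and that of all genes tested was 0.03. The genes were chosen with results of this same contrast known, so these counts describe the 9 and no more.

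**Figure D1:**
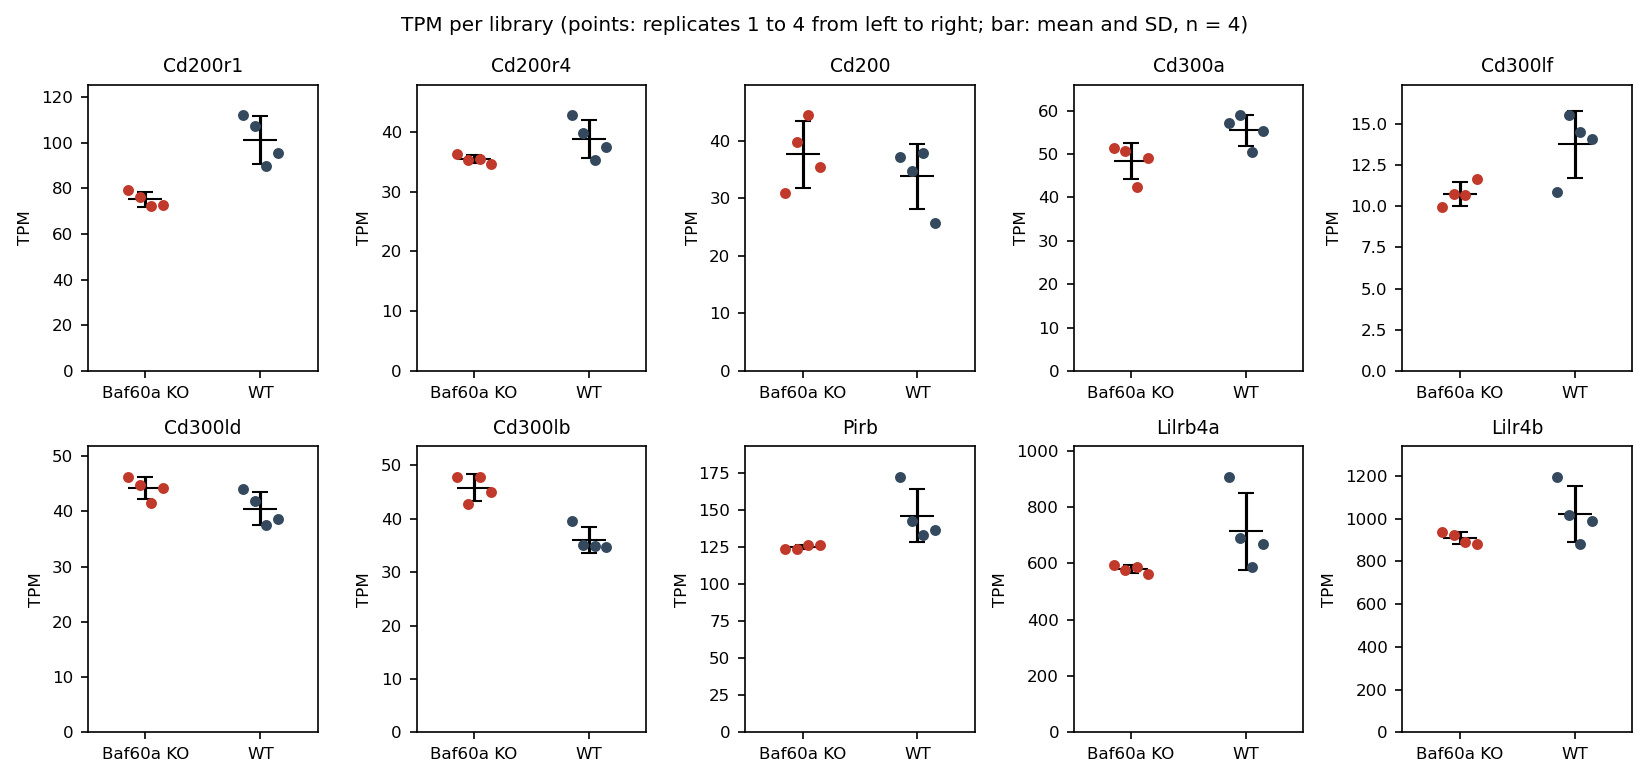
TPM of each of the 10 genes (y axes, from 0) in the 4 Baf60a KO libraries (left in each panel) and the 4 WT libraries (right). Points are libraries and bars give the mean and SD. Cd300lb lay at 42.8 to 47.9 TPM in KO, above all WT libraries, and Cd200r1 at 72.3 to 79.4 TPM, below all of them.

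By level, measured per length, the genes spanned a wide range. In KO macrophages the order was Lilr4b at 908 TPM, Lilrb4a at 581, Pirb at 125, Cd200r1 at 75.2, Cd300a at 48.4, Cd300lb at 45.9, Cd300ld at 44.2, Cd200 at 37.7, Cd200r4 at 35.4 and Cd300lf at 10.7 TPM (means of 4 libraries). In KO, the ranges of neighbours overlapped from Cd300a down to Cd200r4, and those of the other neighbours were apart. In WT macrophages the order was Lilr4b at 1021 TPM, Lilrb4a at 714, Pirb at 146, Cd200r1 at 101, Cd300a at 55.5, Cd300ld at 40.5, Cd200r4 at 38.8, Cd300lb at 36.1, Cd200 at 33.8 and Cd300lf at 13.8 TPM. In WT, Lilr4b overlapped Lilrb4a, and neighbours overlapped from Cd300ld down to Cd200. Cd300lb stood sixth in KO and eighth in WT.

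Within the CD200 system, the inhibitory receptor was lower in KO while its activating relative and the ligand did not pass the test. Cd200r1 (ENSMUSG00000022667, chr16:44765736-44794978, plus strand, mm10) encodes the receptor through which CD200 restrains macrophages. It had 79.4, 76.2, 72.3 and 72.9 TPM in the KO libraries, against 112, 108, 89.8 and 95.4 TPM in the WT libraries. Every KO library lay below every WT library. The means were 75.2 ± 3.27 TPM in KO and 101 ± 10.4 TPM in WT (SD, n = 4 each), a ratio of 0.743 and a log2 difference of -0.42 (SE 0.0731) on the log2(TPM + 1) scale. Fewer cells that make a transcript and less of it per cell cannot be told apart in bulk libraries, for this gene and all that follow. Without WT replicates 3 and 4 the difference was -0.54, the largest under any alternative, and the smallest was -0.37. The call of Cd200r1 was lost without KO replicate 2, 3 or 4 in turn.

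Cd200r4, an activating relative that pairs with DAP12, lies next to Cd200r1 (chr16:44811733-44839150, plus strand). It had 36.3, 35.3, 35.5 and 34.6 TPM in KO, against 42.8, 39.8, 35.4 and 37.4 TPM in WT. The groups overlapped only through WT replicate 3, and the log2 difference of -0.13 (SE 0.0598) did not pass (adjusted p = 0.253, limma with Benjamini-Hochberg adjustment). Cd200 (chr16:45382135-45409053, minus strand) encodes the ligand, a membrane protein found on many cell types. It had 31.0, 39.7, 44.5 and 35.5 TPM in KO, against 37.1, 34.7, 37.9 and 25.6 TPM in WT. The groups overlapped widely, with a log2 difference of 0.15 (SE 0.143, limma adjusted p = 0.591). It was 0.03 without WT replicate 4, 0.07 without KO replicate 3 and 0.24 without KO replicate 1. Ligand and receptor transcripts were thus both present in these cultures. Of the cell types that may carry CD200, stromal markers summed to the values given above, and endothelial markers summed to 25.0 to 32.5 TPM in KO and 16.8 to 23.2 TPM in WT with 1 of 4 (Emcn) higher; their part in the Cd200 level was not tested.

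Within a library, the ratio of Cd200r1 to Cd200r4 removes anything that scales both genes alike. This ratio of TPM was 2.19, 2.16, 2.04 and 2.11 in KO, against 2.62, 2.70, 2.54 and 2.55 in WT. All KO libraries lay below all WT libraries, and the spread within a group was small beside the gap (mean 2.12 ± 0.0653 in KO and 2.60 ± 0.0749 in WT). The sum of both genes was 111 ± 3.84 TPM in KO and 140.1 ± 13.5 TPM in WT, a log2 ratio of means of -0.34, again without overlap. As Cd200r1 enters both measures, they describe its lower level in another form.

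**Figure D2:**
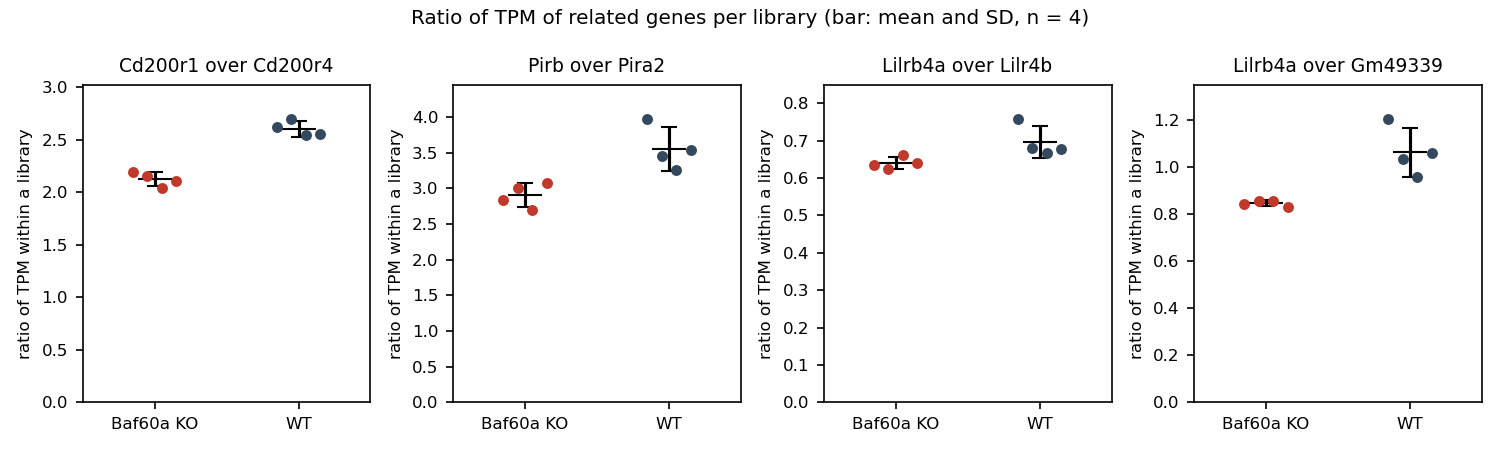
Ratio of the TPM of 2 related genes within each library (y axes, from 0), with the 4 Baf60a KO libraries left of the 4 WT libraries in each panel. Points are libraries, bars the mean and SD. In all 4 panels the KO libraries lie below the WT libraries. Cd200r1 over Cd200r4 lies at 2.04 to 2.19 in KO and 2.54 to 2.70 in WT, and Cd200r1 was part of the choice of genes. Another ratio taken, Cd300lf over Cd300ld, overlapped between the groups, at 0.215 to 0.264 in KO and 0.247 to 0.386 in WT. Of all single genes tested, 15.8% had ranges that did not overlap. The share among ratios of other gene pairs was not computed, so the panels are a description.

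Of the 4 CD300 members, Cd300lb rose, whereas the activating Cd300ld and the inhibitory Cd300a and Cd300lf did not pass the test. The log2 difference of Cd300lf, at -0.32, was close in size to the 0.34 of Cd300lb and opposite in sign. Cd300lb (chr11:114922781-114934386, minus strand) encodes a receptor that couples to DAP12 in mouse myeloid cells. It had 47.9, 42.8, 47.9 and 44.96 TPM in KO, against 39.7, 35.1, 34.8 and 34.7 TPM in WT. Every KO library was higher than every WT library. The means were 45.9 ± 2.48 TPM in KO and 36.1 ± 2.39 TPM in WT (SD, n = 4 each), a ratio of 1.27 and a log2 difference of 0.34 (SE 0.0596, limma adjusted p = 0.021). The call did not hold without KO replicate 1 (adjusted p = 0.0619), KO replicate 3 (0.0642), KO replicate 4 (0.0673) or WT replicate 4 (0.0617), nor without WT replicates 3 and 4 together (log2 difference 0.29, limma adjusted p = 0.0706).

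Cd300ld, another activating receptor of the family, had 46.2, 44.7, 41.4 and 44.2 TPM in KO, against 44.0, 41.8, 37.5 and 38.6 TPM in WT. The groups overlapped and the log2 difference was 0.12 (SE 0.0602, limma adjusted p = 0.265). Cd300a, an ITIM receptor that binds phosphatidylserine and phosphatidylethanolamine on dying cells, had 51.5, 50.7, 42.3 and 49.0 TPM in KO, against 57.2, 59.0, 50.6 and 55.2 TPM in WT. KO replicates 3 and 4 lay below all WT libraries, whereas KO replicates 1 and 2 were above the lowest one. Its log2 difference was -0.20 (SE 0.0732, limma adjusted p = 0.158). Cd300lf, an ITIM receptor known to bind ceramide and phosphatidylserine, had 9.93, 10.7, 10.7 and 11.7 TPM in KO, against 10.9, 15.5, 14.5 and 14.1 TPM in WT. WT replicate 1 lay within the KO range while the other 3 WT libraries lay above it. The log2 difference was -0.32 (SE 0.103, limma adjusted p = 0.108), and without WT replicate 1 it was -0.42 and passed (adjusted p = 0.0203).

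Ratios of an inhibitory to an activating CD300 gene were also taken within each library. Cd300a over Cd300lb was 1.08, 1.19, 0.883 and 1.09 in KO, against 1.44, 1.68, 1.45 and 1.59 in WT. Cd300lf over Cd300lb was 0.208, 0.251, 0.223 and 0.259 in KO, against 0.274, 0.443, 0.416 and 0.406 in WT. For both ratios the groups did not overlap, and both hold the called gene Cd300lb, so they were not tested. With Cd300ld below the line instead, Cd300a over Cd300ld was 1.02 to 1.13 in KO and 1.30 to 1.43 in WT, without overlap. Cd300lf over Cd300ld was 0.215, 0.240, 0.257 and 0.264 in KO, against 0.247, 0.372, 0.386 and 0.365 in WT, so that WT replicate 1 lay within the KO range.

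The CD300 genes lie side by side on chromosome 11, and the pattern of their differences followed no single direction. From Cd300a at the lower coordinate to Cd300lf at the higher one, the cluster also holds Cd300c2, Cd300ld3, Cd300ld4 and Cd300ld5, which were expressed, and Cd300c, Cd300ld2 and Cd300e, which were too low to test. The log2 differences were -0.20 for Cd300a and -0.32 for Cd300lf at the ends, and between 0.09 and 0.57 for the 6 tested genes between them. Of these 6, Cd300lb and Cd300ld5 passed the test. Cd300ld5 had 18.9, 15.95, 21.0 and 18.1 TPM in KO, against 12.8, 15.1, 13.6 and 13.1 TPM in WT, without overlap (log2 difference 0.41, SE 0.0863, limma adjusted p = 0.035).

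All 51-base stretches of Cd300ld5 were shared with other genes, 93.6% of them with Cd300ld4 and 82.0% with Cd300ld3, so the separate values of these 3 are uncertain. Summed, Cd300ld3, Cd300ld4 and Cd300ld5 gave 209.8 ± 3.99 TPM in KO and 187 ± 13.7 TPM in WT, with overlap. In a fit on the summed genes the log2 difference was 0.17 (limma adjusted p = 0.107). The Cd300ld5 call also ended without KO replicate 1, 3 or 4 or WT replicate 1, 3 or 4 (adjusted p from 0.0586 to 0.0931), without WT replicates 3 and 4 together (0.0986) and with replicate numbers as blocks (0.101). Cd300c2, the most abundant relative, averaged 206 TPM in KO and 194 TPM in WT and did not pass (log2 difference 0.09, limma adjusted p = 0.263).

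**Figure D3:**
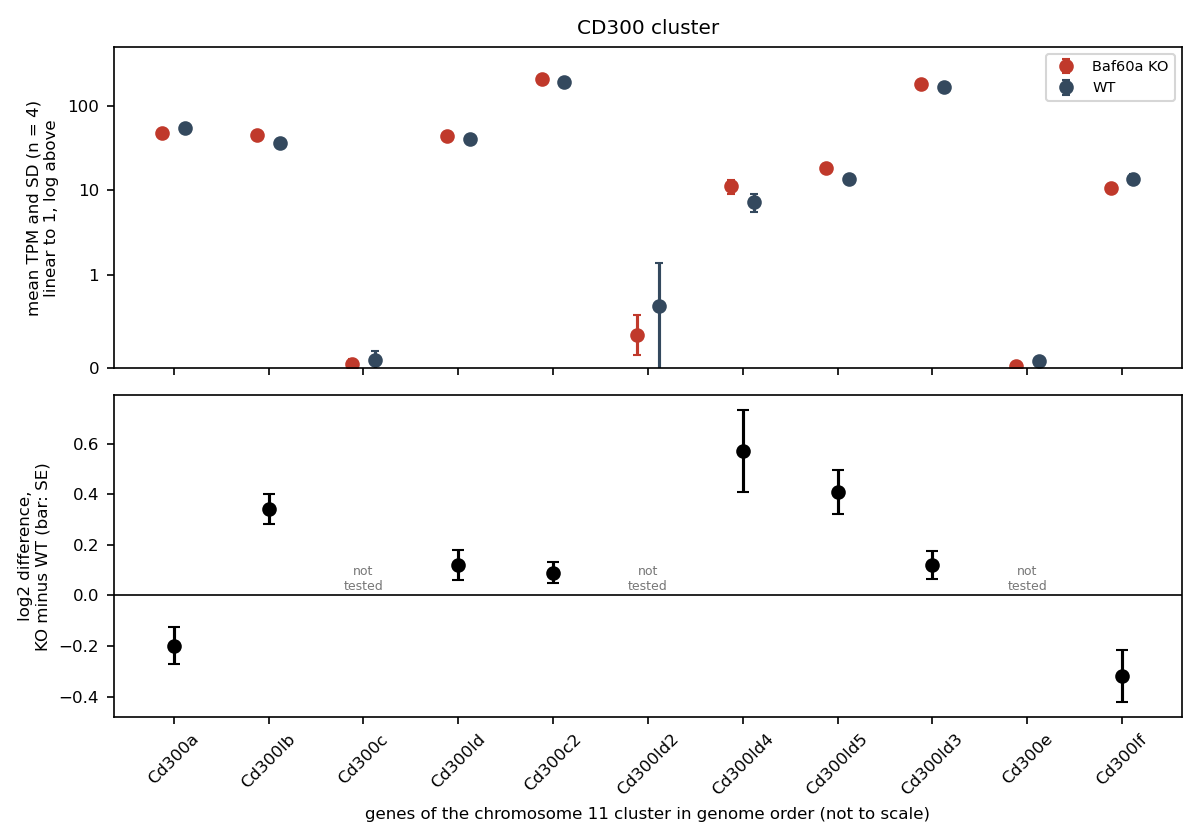
Genes of the CD300 cluster in genome order (x axis, not to scale). Above, mean TPM and SD (n = 4) in Baf60a KO and WT libraries, on an axis that is linear to 1 and logarithmic above; below, the log2 difference of (TPM + 1), KO minus WT, with its SE. The end genes Cd300a and Cd300lf lie below 0, at -0.20 and -0.32, and the tested genes between them lie above 0.

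Of the Pir and Lilr genes, none passed the test, and all 3 had WT replicate 1 as their highest library. Pirb (chr7:3711409-3720391, minus strand) encodes an ITIM receptor for MHC class I molecules. It had 123, 124, 126 and 126 TPM in KO, against 172, 142, 133 and 136 TPM in WT. Every KO library was lower than every WT library, and the KO libraries were far closer together (125 ± 1.53 TPM in KO and 146 ± 17.9 TPM in WT, SD, n = 4 each). The log2 difference was -0.22 (SE 0.0757, limma adjusted p = 0.135). It was -0.14 without WT replicate 1 (limma adjusted p = 0.0866) and -0.32 without WT replicates 3 and 4 (adjusted p = 0.0607).

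Pira2, an activating receptor that couples to the Fc receptor gamma chain, had 43.5, 41.2, 46.8 and 40.9 TPM in KO, against 43.3, 41.1, 40.9 and 38.6 TPM in WT. The groups overlapped, with a log2 difference of 0.07 (SE 0.0568, limma adjusted p = 0.524). Of the 51-base stretches of Pira2, 92.8% were shared with other genes and 82.3% occur in Gm15922. The separate value of Pira2, and any ratio that holds it, is therefore uncertain. Gm15922 averaged 14.5 TPM in KO and 17.3 TPM in WT, without overlap (log2 difference -0.24, limma adjusted p = 0.0418). The same sharing makes the separate value of Gm15922 uncertain, and its call was not followed under the alternatives. Pirb over Pira2 was 2.84, 3.004, 2.70 and 3.08 in KO, against 3.98, 3.46, 3.26 and 3.53 in WT, and so was lower in every KO library. Since 20.5% of the 51-base stretches of Pirb also occur in Pira2 and 21.5% in Gm14548, Pirb was also summed with the 9 genes that hold at least 5% of its stretches. That sum was 193 ± 4.42 TPM in KO and 215 ± 20.7 TPM in WT, a log2 ratio of means of -0.16 with no overlap, and -0.09 without WT replicate 1.

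Lilrb4a (chr10:51490956-51496611, plus strand), a receptor with ITIMs also called gp49B, had 596, 576, 589 and 564 TPM in KO, against 908, 691, 588 and 669.55 TPM in WT. The groups overlapped through WT replicate 3, and WT replicate 1 stood highest. The log2 difference was -0.28 (SE 0.114, limma adjusted p = 0.19), and -0.16 without WT replicate 1. Lilr4b (chr10:51480632-51486703, plus strand), its relative without an ITIM, also called gp49A, had 938, 924, 890.1 and 881 TPM in KO, against 1196, 1017, 882 and 989 TPM in WT. The groups overlapped, with a log2 difference of -0.16 (SE 0.0821, limma adjusted p = 0.291), and -0.08 without WT replicate 1.

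The annotation also holds Gm49339 (chr10:51480612-51496613, plus strand), a protein-coding gene model that spans both of these genes and shares 92.3% of the 51-base stretches of Lilrb4a. Gm49339 had 705, 671, 686 and 676 TPM in KO, against 752, 669, 614 and 632 TPM in WT, with overlap and a log2 difference of 0.04 (limma adjusted p = 0.757). Lilrb4a over Gm49339 was 0.845, 0.858, 0.859 and 0.834 in KO, against 1.21, 1.03, 0.958 and 1.06 in WT, so the division of TPM between the models differed between the groups. The sum of Lilrb4a and Gm49339 was 1266 ± 27.9 TPM in KO and 1381 ± 197 TPM in WT, and the sum of all 3 models was 2174 ± 48.8 TPM in KO and 2402 ± 327 TPM in WT. Both sums overlapped between the groups, with log2 ratios of means of -0.13 and -0.14, which became -0.03 and -0.05 without WT replicate 1. Lilrb4a over Lilr4b was 0.635, 0.623, 0.662 and 0.640 in KO, against 0.759, 0.680, 0.667 and 0.677 in WT; the highest KO library lay just under the lowest WT library.

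Pirb, the Lilr genes and CD300 receptors are also made by neutrophils and mast cells. Neutrophil markers summed to 147 to 234 TPM in KO and 191 to 283 TPM in WT, and 0 of the 4 tested passed. Ly6g stayed at or under 1.15 TPM, while S100a8 averaged 58.7 TPM in KO and 58.6 TPM in WT and S100a9 116 TPM in KO and 133 TPM in WT. Ngp, a neutrophil granule gene, lay at 15.3 to 23.7 TPM in KO and 24.9 to 35.1 TPM in WT, without overlap (log2 difference -0.48, limma adjusted p = 0.0934). Mast cell and basophil markers summed to 3.37 to 4.35 TPM in KO and 4.42 to 6.19 TPM in WT, with Fcer1a at 0 in every KO library and at most 0.12 TPM in WT, and 0 of the 2 tested passed. The part of neutrophils in these results was not tested. Dendritic cell, B cell, and T and NK cell markers summed to at most 3.03 TPM in any library.

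**Figure D4:**
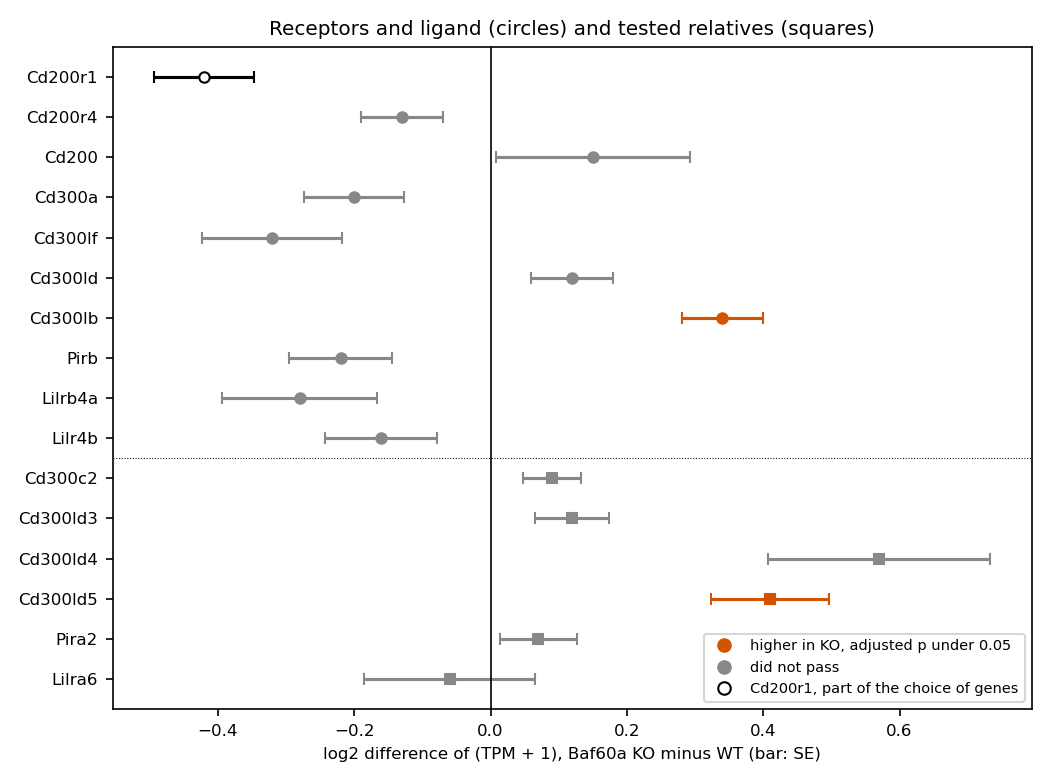
Log2 difference of (TPM + 1), Baf60a KO minus WT, with its SE for the 10 genes (circles) and their 6 tested relatives (squares); filled colours mark the limma call and the open circle is Cd200r1. Cd300lb at 0.34 and Cd300ld5 at 0.41 passed the test, and the Pir and Lilr genes among the 10 lie between -0.16 and -0.28.

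Ligands of these receptors other than Cd200 were measured as a list. Of 10 listed, 8 were tested, 1 rose and none fell (median log2 difference 0.09). Angptl2, a secreted protein that binds PirB in mouse, had 92.0, 95.7, 91.3 and 98.3 TPM in KO, against 74.6, 81.4, 73.5 and 73.9 TPM in WT. The groups did not overlap, and the log2 difference of 0.31 (SE 0.0466, limma adjusted p = 0.0117) kept its call under every alternative tried. Stromal markers, whose sums were higher in every KO library, moved with it, and their part in the result was not tested. B2m, the shared light chain of MHC class I and the most abundant gene of the list, averaged 2709 TPM in KO and 2598 TPM in WT, with overlap (log2 difference 0.06, limma adjusted p = 0.697). The MHC class I gene H2-K1 lay at 1731 to 1894 TPM in KO and 1986 to 2255 TPM in WT. It was lower without overlap but did not pass (log2 difference -0.17, limma adjusted p = 0.0894). Such lower ranges were found for 3.96% of all genes tested. H2-D1, another MHC class I gene, overlapped (log2 difference 0.07, limma adjusted p = 0.476). Under other scalings 1 or 2 genes of the list fell: 2 under median-of-ratios scaling, 1 under quantile normalization and 1 with protein-coding rescaling.

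Of the effectors that inhibitory receptors recruit, 12 of 12 were tested, 4 rose and none fell (median log2 difference 0.23). Of all genes tested, 4.40% rose and the median was 0.03, which also applies to the other lists. Ptpn6, which encodes SHP-1, had 54.8, 51.6, 57.6 and 53.7 TPM in KO, against 38.1, 38.4, 35.0 and 35.4 TPM in WT. The groups were far apart, with a log2 difference of 0.56 (SE 0.0514, limma adjusted p = 0.00159), and the call held under every alternative tried. Csk, the kinase that restrains Src family kinases, averaged 53.3 TPM in KO and 44.7 TPM in WT (log2 difference 0.25, limma adjusted p = 0.0409). Inppl1, which encodes the lipid phosphatase SHIP-2, averaged 61.5 TPM in KO and 51.5 TPM in WT (log2 difference 0.25, limma adjusted p = 0.0463). The macrophage markers moved the same way, as given above, and their part in these values was not tested.

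The calls of Csk and Inppl1 were lost under 12 and 13 of 19 alternatives. Both ended with no filter on low values (limma adjusted p = 0.072 and 0.0855) and with no mean-variance trend (0.058 and 0.065). That of Csk also ended under median-of-ratios scaling (0.0508), and that of Inppl1 under quantile normalization (0.0561). Both also ended when single libraries were left out. Csk lost its call without any 1 library except WT replicate 2 (adjusted p from 0.0684 to 0.107), and Inppl1 without any 1 of the 8 (0.0533 to 0.112). Without WT replicates 3 and 4, or with the replicate block, 1 of the 12 rose; without 1 library the number ran from 1 to 3.

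Of the 17 genes listed as other ITIM receptors, 14 were tested, 4 rose and none fell (median log2 difference 0.19). Whether each mouse protein of this list, Cd33 among them, carries an ITIM was not checked. Pecam1, an adhesion receptor with ITIMs, had 10.2, 13.1, 13.3 and 10.8 TPM in KO, against 8.31, 7.28, 7.29 and 7.12 TPM in WT. The groups did not overlap, with a log2 difference of 0.59 (SE 0.0941, limma adjusted p = 0.0144). Clec12a, an inhibitory C-type lectin that senses uric acid crystals, averaged 82.2 TPM in KO and 59.4 TPM in WT (log2 difference 0.47, limma adjusted p = 0.0157). Cd72, an inhibitory receptor best known on B cells, averaged 163 TPM in KO and 126 TPM in WT (log2 difference 0.37, limma adjusted p = 0.0276). Cd33, a sialic acid receptor, averaged 12.1 TPM in KO and 8.15 TPM in WT (log2 difference 0.52, limma adjusted p = 0.0415).

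Pecam1 also marks endothelial cells, whose summed markers were higher in every KO library as given above, with 1 of 4 passing the test; their part in the result was not tested. Pecam1 lost its call under 2 alternatives, with replicate blocks (adjusted p = 0.0633) and when WT replicates 3 and 4 were omitted (0.0617). Clec12a lost it without KO replicate 1, 2 or 4 (at most 0.0536), Cd72 without KO replicate 1, 3 or 4 or WT replicate 2, 3 or 4 (0.0504 to 0.0801), and Cd33 without any 1 library except WT replicate 2 (0.0511 to 0.119). Without WT replicates 3 and 4, or with the block, 1 of the 14 rose, and without 1 library from 1 to 5 rose.

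On the activating side, 8 of 8 adaptors and kinases were tested, 2 rose and none fell (median log2 difference 0.11). Tyrobp, which encodes DAP12, had 1535, 1445, 1520.5 and 1479.75 TPM in KO, against 1365, 1210.3, 1242 and 1209 TPM in WT. Every KO library was higher, with a log2 difference of 0.25 (SE 0.0475, limma adjusted p = 0.026). Hcst, which encodes the related adaptor DAP10, had 36.1, 33.7, 29.1 and 30.8 TPM in KO, against 25.6, 22.3, 19.0 and 17.9 TPM in WT. These did not overlap either, with a log2 difference of 0.60 (SE 0.114, limma adjusted p = 0.027). Both calls ended without any 1 KO library and without WT replicate 4, and that of Tyrobp also without WT replicate 2 (adjusted p from 0.0530 to 0.0778). Without WT replicates 3 and 4 the list had 0 genes that rose and 1 that fell.

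**Figure D5:**
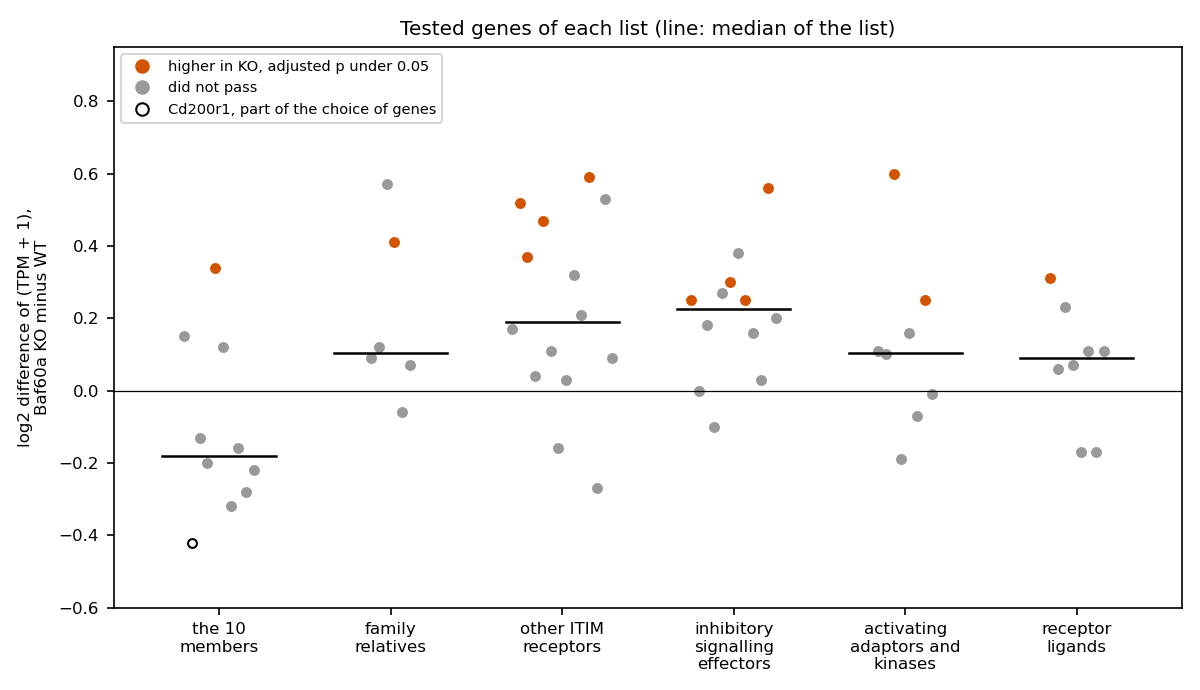
Log2 difference of (TPM + 1), Baf60a KO minus WT (y axis), of each tested gene in the 10 followed here and in 5 lists of relatives, other receptors, signalling genes and ligands; lines are medians and colours give the limma call. The median lies at -0.18 for the 10 genes with Cd200r1 (open circle), at 0.19 for genes listed as other ITIM receptors and at 0.23 for inhibitory effectors.

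Of the 19 relatives listed, 13 were in the table under their symbols and 6 were tested, of which 1, Cd300ld5, rose and none fell (median log2 difference 0.10). The relatives Cd200r2, Cd200r3, Cd300c, Cd300e, Cd300lg, Cd300ld2 and Lilra5 were too low to test. Lilra6 averaged 1.34 TPM in KO and 1.43 TPM in WT, and Cd300ld4 averaged 11.2 TPM in KO and 7.27 TPM in WT (log2 difference 0.57, limma adjusted p = 0.0804).

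The genes whose profiles over the 8 libraries lay closest to those of the called members were found by the root mean square difference of centred log2(TPM + 1) values. Closest to Cd200r1 were 3110039I08Rik (root mean square difference 0.0365; 26.6 TPM in KO and 37.4 TPM in WT), Slamf7, a receptor of the SLAM family (0.0440; 158 TPM in KO and 211 TPM in WT), and Id2, a transcriptional inhibitor (0.0515; 204 TPM in KO and 264 TPM in WT). Closest to Cd300lb were Cd72 (0.0326; 163 TPM in KO and 126 TPM in WT), Dgka, a diacylglycerol kinase (0.0397; 5.84 TPM in KO and 4.50 TPM in WT), and Cst3, a secreted protease inhibitor (0.0407; 1120.3 TPM in KO and 865 TPM in WT). These likenesses are descriptions, since any gene with a similar difference between the groups comes close.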

How the data were processed

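Total RNA of macrophages at day 7 was sequenced in 4 Baf60a KO and 4 WT libraries as paired 51-base reads, per the labels' protocols. The submitters' processing notes name Salmon 1.2.0, bcl2fastq and build mm10, while annotation and gene-level summing were not stated in the sources used here. The authors deposited 1 TPM value per gene and library, already scaled within each library to a sum of 1000000, so read depth is unknown and neither counting intervals nor limits for a value of 0 were computed. TPM is relative: a large change in some transcripts moves all others.

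From these values, genes over 1 TPM in at least 4 of 8 libraries were tested on log2(TPM + 1) with limma 3.58.1 (R 4.3.3, mean-variance trend, no covariates), with Benjamini-Hochberg adjustment over all genes tested and calls at an adjusted p under 0.05. Log2 differences are KO minus WT and understate changes of low genes. Symbols came from GENCODE M21 and matched 55154 of the 55421 identifiers. Sharing of 51-base stretches and coding identity were computed from its transcripts (Biopython 1.88). On simulated data, the fit recovered 30.6%, 71.6% and 91.9% of genes changed 1.25-fold, 1.5-fold and 2-fold among 13933 genes. No libraries held identical values. Members and lists were chosen with earlier results of these data known. The text names all members, up to 4 called genes of each list (with fewer than 2 called, also the most abundant tested gene), the 3 nearest genes of each called member, and, chosen after their values were seen, genes sharing sequence with members. The ligand genes H2-K1 and H2-D1 were also named after their values were seen. A called gene of the effector list is not reported here. Alternatives covered pseudocount, filter, trend, replicate block, scaling, omitted libraries and, added after seeing the data, summed copies.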

Additional observations from a re-analysis of the deposited data

Results flagged for a closer look

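Among 62 groups of 4 libraries checked, 5 held a library whose gap to the nearest other exceeded Dixon's 95% critical value (as a share of the group's range); chance flags about 1 in 20 groups. The Cd300lb level in WT replicate 1 was 39.65 TPM, against 34.72 to 35.05 TPM in the other WT libraries, and without it the log2 difference was 0.38. In the same WT library Pecam1 was at 8.31 TPM (7.12 to 7.29 TPM in the other WT libraries) and Cd72 at 144.96 TPM (119.08 to 120.43 TPM). Inppl1 was at 67.12 TPM in KO replicate 3, with 58.97 to 60.35 TPM in the other KO libraries, and Angptl2 at 81.42 TPM in WT replicate 2, with 73.49 to 74.55 TPM in the other WT libraries.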

How the results depend on the processing

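The 782 genes called became 364 with no filter on low values (27510 tested), 372 without WT replicates 3 and 4 (201 higher and 171 lower in KO) and 209 with the replicate block, and ran from 156 to 679 when 1 library was left out (156 without KO replicate 4). The cause of these shifts was not tested. The 2 members called, Cd200r1 and Cd300lb, became 1 (Cd200r1) without WT replicates 3 and 4, stayed 2 under the replicate block, and ran from 0 to 3 when 1 library was left out. None was called without KO replicate 3 or KO replicate 4, while without WT replicate 1 Cd300lf was added. Cd200r1 lost its call without KO replicates 2, 3 and 4 in turn. As Cd200r1 was part of the choice of genes, its calls here are a description and no test. The sum of Cd200r1 and Cd200r4 had a log2 ratio of means of -0.45 without WT replicates 3 and 4, against -0.34 with them. Of 189 member values under alternatives, 180 kept their side of the threshold, 8 lost the call, 1 gained it and 0 reversed. Most of the 180 belong to members with no call in the main fit. Only Cd200r1 and Cd300lb had a call to lose. Of 19 alternatives each, Cd200r1 lost it under 3 and Cd300lb under 5. Of 266 values of 14 other named genes, 81 lost the call and 0 reversed. Cd300c2 and B2m, which are among the 14, had no call in the main fit to lose. The deviations of same-numbered libraries correlated at -0.11, 0.01, 0.01 and -0.02 over genes, so the numbers were not taken as pairs. Cells of a type, protein and surface levels were not measured.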
